A study of Homo sapiens with 4 samples.

Results

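The antiviral effectors examined were 10 interferon-induced genes whose products act against viruses: MX1, MX2, BST2, ISG20, RSAD2, TRIM22, SAMD9, SAMD9L, PLSCR1 and IFI6. They were measured by all 11 probes that the platform annotation assigns to these symbols, of 47322 probes on the array, with 2 probes for IFI6 and 1 for each other gene. By their labels the cells were H358, an established human lung adenocarcinoma line. They were transfected with either a scrambled control (2 arrays) or an shRNA against ADAR (2 arrays). The labels do not say what kind of construct the scrambled control was. Both ADAR shRNA arrays are titled ADAR B, and the letter is not explained. A short hairpin RNA of this kind lowers the transcript that it matches, and the sources used here name neither the hairpin's sequence nor the time after transfection. Each array reported the total RNA of a whole culture, so fewer expressing cells and less RNA per cell cannot be told apart.

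The ADAR enzyme edits adenosines to inosines within double-stranded RNA, and in many cells its loss leaves RNA that cytosolic sensors can take for viral. Type I interferon acts through its receptor and the kinases JAK1 and TYK2, and transcription factors that include IRF9 then bind the interferon-stimulated response element in the promoters of target genes. The effectors act at different steps: tetherin (BST2) holds budding particles at the cell surface, the MX GTPases trap viral nucleocapsids and capsids, ISG20 degrades RNA, and viperin (RSAD2) makes a nucleotide that ends viral RNA chains. The question addressed by the comparison is how transcripts of these effectors differ between cells with and without the ADAR shRNA.

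ADAR was read by 3 probes. On its brightest probe, ILMN_1776777, the raw signals were 2703 and 2676 in scrambled cells, against 754.7 and 932.5 in ADAR shRNA cells. The normalized level fell by 1.03 on the log2 scale (SE 0.22, limma adjusted p = 0.00561). The probe ILMN_2320964 read a log2 difference of -0.19 (SE 0.25, limma adjusted p = 0.557), which passed when arrays were scaled to their medians (-0.77, limma adjusted p = 0.0460) or left unscaled (-1.04, limma adjusted p = 0.0329). It turned to 0.085 without scrambled replicate 1. The third probe was detected on 1 of the 4 arrays and was not tested. Throughout, a probe was detected on an array if its detection p against the negative controls was under 0.05. Detected probes numbered 20031 to 20901 on the scrambled arrays and 18722 to 19294 on the ADAR shRNA arrays, where the raw signal was lower as well.

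Of the markers of epithelium and lung adenocarcinoma, CDH1 (E-cadherin), EPCAM and the lung transcription factor NKX2-1 were detected on both scrambled arrays and on neither ADAR shRNA array. In that list 9 of 14 tested probes fell and 2 rose, both of MUC1 (0.86 and 0.67 on the log2 scale, probes ILMN_2371911 and ILMN_1756992). In raw signal ILMN_2371911 read 166.2 and 141.0 in scrambled cells, against 168.2 and 156.4 in ADAR shRNA cells. ILMN_1756992 was lower in raw signal in ADAR shRNA cells (347.4 and 343.6, against 377.8 and 398.8), so its rise appeared after normalization. The tested probes of CDH1, EPCAM and NKX2-1 passed the detection filter through the scrambled arrays alone and so had to be lower. The filter did not set the size. On the normalized scale CDH1 fell at least 113-fold and EPCAM at least 37.9-fold to 260-fold by probe. The NKX2-1 probes fell at least 3.40-fold and 5.71-fold. Over all 21263 tested probes 26.3% fell and 24.2% rose, which is the background for each marker list. The summed raw signal of that list was 34117 and 31696 in scrambled cells, against 3524 and 3216 in ADAR shRNA cells. The keratins KRT7, KRT8 and KRT19 were detected on all 4 arrays and fell by 4.75, 1.86 and 1.66 on the log2 scale, neither KRT18 probe passed, and the surfactant genes SFTPB and SFTPC were detected on no array. Of the haematopoietic markers PTPRC, CD3E, CD53 and TYROBP were detected on no array. Over that list 3 of 8 tested probes rose and 2 fell, with summed raw signals of 3049 and 2919 in scrambled cells, against 3400 and 4141 in ADAR shRNA cells. The risen probes were both of CD14, a monocyte marker (4.01 on probe ILMN_2396444), and 1 of 3 of CD68 (1.43). CORO1A and LAPTM5 fell at least 7.14-fold and 4.99-fold on the normalized scale, to background. They passed the filter through the scrambled arrays alone and so had to be lower. The CD14 probe ILMN_1740015 passed it through the ADAR shRNA arrays alone and so had to be higher. Fibroblast markers rose in 1 and fell in 2 of 3 tested probes, with sums of 876.5 and 793.3 against 669.0 and 649.4. The fallen probes, of COL1A1 and LUM, passed the filter through the scrambled arrays alone, so their direction was set by the filter. COL3A1 and THY1 were not detected. Of 6 endothelial markers 1 was detected on any array, with sums of 418.6 and 369.6 against 334.9 and 354.7, and VWF and CDH5 were not detected. These shifts coincide with the shRNA groups and cannot be told apart from the shRNA by this design. Their part in the results on the effectors was not tested.

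The genes lie on several chromosomes. In the RefSeq annotation of GRCh38.p14, MX2 (chr21:41362027-41409393) and MX1 (chr21:41420558-41459214) are neighbours, as are SAMD9 (chr7:93099518-93117979) and SAMD9L (chr7:93130056-93148385). BST2 lies at chr19:17402939-17405630, ISG20 at chr15:88635632-88656483, RSAD2 at chr2:6865885-6898239 and TRIM22 at chr11:5689790-5710863. PLSCR1 lies at chr3:146515180-146544607 and IFI6 at chr1:27666064-27672192. Promoter windows from RefSeq on the same build, running from 250 bases before a start site to 50 after it, were matched for 8 of the 10 genes (12 windows). The core of the interferon-stimulated response element, searched on both strands as the letters GAAA, any 2 bases and GAAA again, was found in windows of 7 of these 8 genes and in 9 of the 12 windows. The same letters occur in 3.57% of all 35116 promoter windows, or in 4.38% of the 27305 genes with a window. These 4 windows are shown because they belong to the genes with the largest fall (BST2), a fall with the target detected throughout (MX1), the rise (ISG20) and no called change (IFI6). Each is printed on the strand of its gene with the core in capitals.
BST2: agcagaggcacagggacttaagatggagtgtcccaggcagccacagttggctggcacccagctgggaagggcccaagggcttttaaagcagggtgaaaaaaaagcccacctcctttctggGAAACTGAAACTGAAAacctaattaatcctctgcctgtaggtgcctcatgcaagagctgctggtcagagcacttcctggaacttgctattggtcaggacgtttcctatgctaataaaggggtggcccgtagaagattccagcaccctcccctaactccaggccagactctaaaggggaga
MX1: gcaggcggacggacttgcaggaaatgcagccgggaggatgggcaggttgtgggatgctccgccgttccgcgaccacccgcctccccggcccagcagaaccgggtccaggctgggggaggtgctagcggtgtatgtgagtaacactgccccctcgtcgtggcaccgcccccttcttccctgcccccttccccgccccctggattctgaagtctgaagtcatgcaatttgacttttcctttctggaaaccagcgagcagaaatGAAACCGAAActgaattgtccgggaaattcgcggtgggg
ISG20: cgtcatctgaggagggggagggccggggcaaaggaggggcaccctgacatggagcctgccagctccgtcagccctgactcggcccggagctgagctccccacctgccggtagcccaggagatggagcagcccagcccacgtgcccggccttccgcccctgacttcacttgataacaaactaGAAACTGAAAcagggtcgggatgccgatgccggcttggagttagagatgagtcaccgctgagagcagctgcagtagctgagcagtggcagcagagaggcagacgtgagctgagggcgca
IFI6: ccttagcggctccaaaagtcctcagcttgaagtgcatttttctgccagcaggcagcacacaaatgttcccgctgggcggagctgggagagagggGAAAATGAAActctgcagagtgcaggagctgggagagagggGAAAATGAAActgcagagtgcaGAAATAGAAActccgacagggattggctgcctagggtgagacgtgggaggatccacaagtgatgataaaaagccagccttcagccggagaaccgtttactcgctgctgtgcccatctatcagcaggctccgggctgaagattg
The windows are chr19:17405581-17405880 (minus strand) for BST2, chr21:41420308-41420607 (plus) for MX1, chr15:88638766-88639065 (plus) for ISG20 and chr1:27672143-27672442 (minus) for IFI6. BST2 held 2 overlapping copies, which begin 130 and 124 bases before the start site, and ISG20 held 1 copy of the same 10 letters, 69 bases before its start site. IFI6 held 3 copies, at 156, 115 and 93 bases before the start site, and the MX1 copy began 11 bases after it. The third MX1 window, the second RSAD2 window, the SAMD9 window and both PLSCR1 windows held the core as well, and the SAMD9L window did not. The gamma-activated site, searched as TTCNNNGAA, was found in windows of 3 of the 8 genes (BST2, MX1 and PLSCR1). It occurs in 7.66% of all windows, or in 9.38% of the 27305 genes with a window. In BST2 and in the third MX1 window it overlapped a response element core. These matches describe sequence and were tied to no measurement of binding.

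Of the 11 effector probes, 10 were detected on both scrambled arrays. On the ADAR shRNA arrays 6 of these 10 remained detected on both arrays, 2 on 1 array and 2 on neither. Of all 18182 probes detected on both scrambled arrays, 11.8% were detected on neither ADAR shRNA array. The TRIM22 probe was detected on no array and was not tested. In the 10 probes tested, 6 fell and 1 rose at an adjusted p under 0.05, where 26.3% of all tested probes fell and 24.2% rose. BST2 and MX2 passed the detection filter through the scrambled arrays alone and so had to be lower in the other group. Among the 8 effector probes detected on at least 1 array of each group, 4 fell and 1 rose, against 22.2% and 23.6% of the 17963 tested probes detected in that way. Without the detection filter, with all 47322 probes tested, 5 of the 11 effector probes fell and 1 rose, against 10.5% and 9.63% of all probes. The median log2 difference was -0.94 over the 10 tested effector probes and 0.00061 over all tested probes. With no filter it was -0.87 over all 11 effector probes and 0.010 over all 47322 probes. Both ADAR shRNA arrays lay below both scrambled arrays for 6 effector probes and above for 2, against 38.7% and 37.0% of all tested probes, and the groups overlapped for the other 2.

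**Figure D1:**
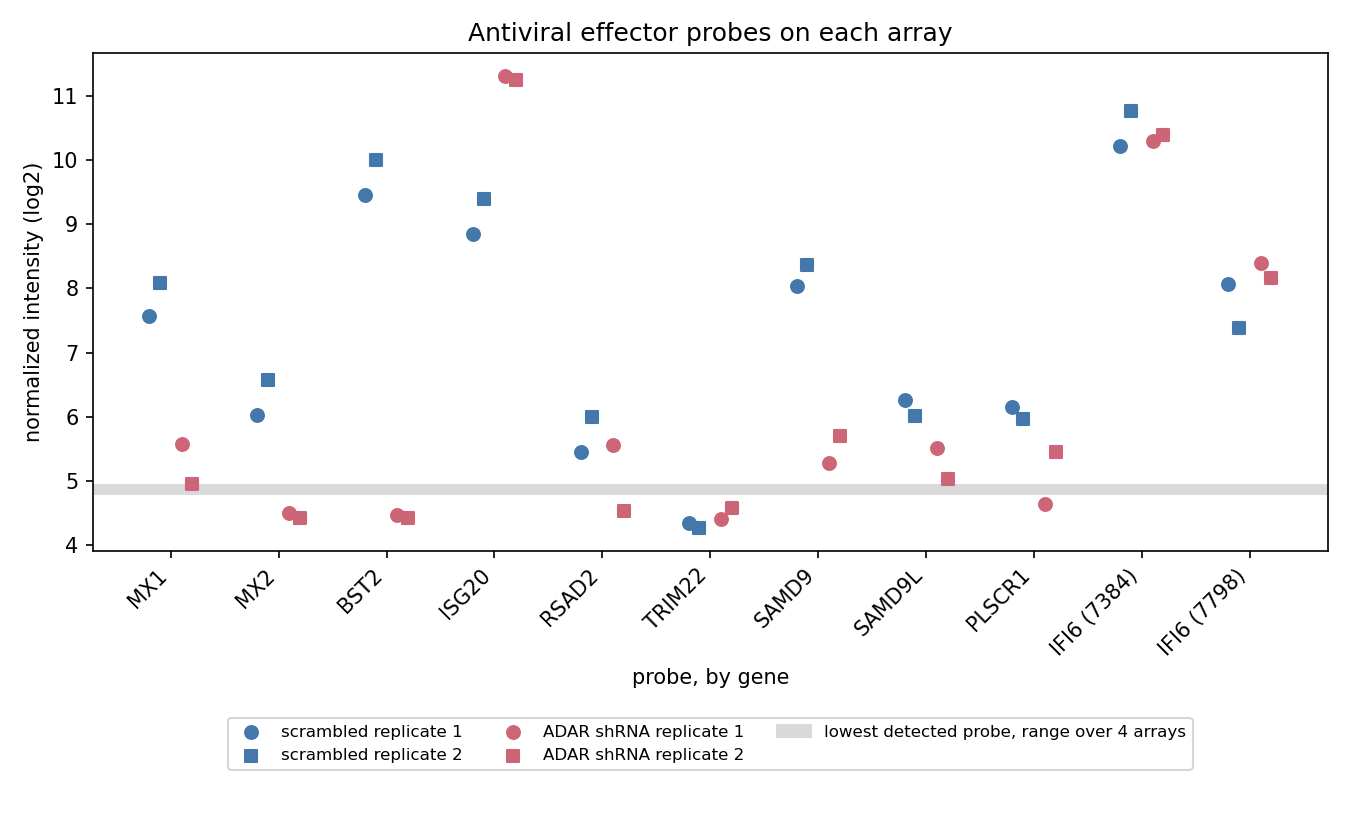
Normalized log2 intensity (y axis) of the 11 antiviral effector probes (x axis) on each of the 4 arrays, with blue for scrambled, red for ADAR shRNA, circles for replicate 1 and squares for replicate 2. The grey band is the lowest value of any detected probe, 4.79 to 4.94 over the 4 arrays, and levels of different probes are not comparable. BST2, MX2 and TRIM22 lie below the band on both ADAR shRNA arrays, and ISG20 lies at 11.32 and 11.25 in ADAR shRNA cells against 8.85 and 9.40 in scrambled cells.

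Among the effectors that act at membranes, BST2 had the largest difference. Its raw signals were 1087 and 1232 in scrambled cells, against 52.3 and 49.4 in ADAR shRNA cells. Both scrambled arrays were well above background, and both ADAR shRNA arrays were within the range of the negative controls. BST2 therefore fell at least 28.2-fold on the normalized scale of the main fit (limma adjusted p = 3.32e-06, or 0.000556 with no detection filter). The bound compares the mean of the scrambled arrays with, on each ADAR shRNA array, the higher of the lowest detected probe and the probe's own value. Each bound of this kind in the text holds for the main processing alone. For BST2 the ratio of mean raw signals was 22.8. Its log2 difference of -5.29 became -3.99 with an offset of 50 and -3.71 with no background correction. The normalized means were 9.73 ± 0.39 and 4.45 ± 0.03 (SD, n = 2 per group). Leaving out each array in turn gave log2 differences of -5.56 to -5.01.

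PLSCR1 encodes a phospholipid scramblase of the plasma membrane that also enters the nucleus. It read 141.9 and 103.8 in raw signal in scrambled cells, against 57.3 and 71.5 in ADAR shRNA cells. Of the ADAR shRNA arrays only replicate 2 was above background, and neither reached the lower scrambled array. PLSCR1 fell by 1.02 on the log2 scale (SE 0.28, limma adjusted p = 0.0170), or at least 1.83-fold against background on the normalized scale. The fall did not pass without scrambled replicate 1 (-0.93, limma adjusted p = 0.0793) or without ADAR shRNA replicate 1 (-0.62, limma adjusted p = 0.0990). Nor did it pass with no detection filter or on the authors' processed values (limma adjusted p = 0.0810 and 0.130). Over 15 alternatives its adjusted p ranged from 0.00519 to 0.130. IFI6, a small membrane protein of mitochondria and the endoplasmic reticulum, had a pair of probes annotated to different transcripts. The brighter probe, ILMN_1687384, read 1762 and 2025 in raw signal in scrambled cells, against 1030 and 1074 in ADAR shRNA cells. After quantile normalization its groups overlapped, with a log2 difference of -0.15 (95% interval -0.68 to 0.39, limma adjusted p = 0.635).

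The other IFI6 probe, ILMN_2347798, read 445.3 and 226.6 in raw signal in scrambled cells, against 289.0 and 249.7 in ADAR shRNA cells. The scrambled arrays lay on either side of both ADAR shRNA arrays in raw signal, and below both after normalization. Its log2 difference was 0.56 (95% interval -0.04 to 1.15, limma adjusted p = 0.107), and it passed without scrambled replicate 1 (0.90, limma adjusted p = 0.0232). The sign of this probe depended on scaling: the difference was -0.013 after scaling to array medians and -0.25 without scaling. In those fits the median over tested probes was -0.32 and -0.52 in place of 0.00061. Relative to those medians it was 0.31 and 0.27. The brighter probe was -0.24 and -0.35 relative to the same medians, and without scaling its own difference of -0.86 passed (limma adjusted p = 0.0125). It turned to 0.13 without scrambled replicate 2.

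The dynamin-like GTPases MX1 and MX2 were both lower. MX1, which restricts influenza and other RNA viruses, read 323.9 and 352.9 in raw signal in scrambled cells, against 76.1 and 62.0 in ADAR shRNA cells. All 4 arrays were above background, and the groups were widely separated. MX1 fell by 2.56 on the log2 scale (SE 0.28, limma adjusted p = 0.000186). Its normalized means were 7.82 ± 0.36 and 5.26 ± 0.45 (SD, n = 2 per group). MX2, which restricts retroviral and herpesvirus capsids, read 131.7 and 141.9 in raw signal in scrambled cells, against 53.1 and 49.0 in ADAR shRNA cells. Neither ADAR shRNA array was above background, so MX2 fell at least 2.61-fold on the normalized scale (limma adjusted p = 0.000416, or 0.00558 with no detection filter). The fitted MX2 difference of -1.85 on the log2 scale rests on background readings in ADAR shRNA cells. With no background correction MX1 read -1.62 in place of -2.56, and on the authors' processed values -3.32. MX1 and MX2 passed under all 15 alternatives that gave them a value.

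SAMD9 and SAMD9L are large cytoplasmic proteins that restrict poxviruses and limit protein synthesis. SAMD9 read 437.2 and 426.7 in raw signal in scrambled cells, against 69.7 and 77.4 in ADAR shRNA cells. The replicates of each group were close together, and all 4 arrays were above background. SAMD9 fell by 2.72 on the log2 scale (SE 0.23, limma adjusted p = 5.3e-05), and 2.09% of tested probes had a log2 difference as low or lower. It read -1.83 with no background correction and -3.31 on the authors' processed values. Its neighbour SAMD9L read 150.3 and 105.4 in raw signal in scrambled cells, against 74.5 and 63.4 in ADAR shRNA cells. These groups did not overlap, but in raw signal the scrambled arrays differed from each other by more than the lower of them differed from the nearest ADAR shRNA array. SAMD9L fell by 0.87 on the log2 scale (SE 0.23, limma adjusted p = 0.0151). That fall did not pass without scrambled replicate 1 (-0.74, limma adjusted p = 0.0747), without ADAR shRNA replicate 2 (-0.62, limma adjusted p = 0.103) or on the authors' processed values (limma adjusted p = 0.0683), and over 15 alternatives the adjusted p ranged from 0.00462 to 0.103. No test compared the changes of SAMD9 and SAMD9L with each other.

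ISG20, an exonuclease that degrades viral RNA, was the effector that rose. Its raw signals were 740.8 and 834.2 in scrambled cells, against 2127 and 2009 in ADAR shRNA cells. It was the only effector probe whose raw signal was higher on both ADAR shRNA arrays than on both scrambled arrays. ISG20 rose by 2.16 on the log2 scale (SE 0.23, limma adjusted p = 0.000180), or 4.48-fold. Its normalized means were 9.12 ± 0.39 and 11.29 ± 0.05 (SD, n = 2 per group). Of all tested probes 3.85% had a log2 difference as high or higher. ISG20 passed under all 16 alternatives, with log2 differences from 1.44 to 2.44. Its window carries the response element core GAAACTGAAA, as do those of BST2 and SAMD9 and, on the opposite strand, the second RSAD2 window. ISG20 rose, BST2 and SAMD9 fell, and RSAD2 was not called. Any part of the shared letters in these changes was not tested.

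RSAD2 read 97.7 and 105.0 in raw signal in scrambled cells, against 75.8 and 53.1 in ADAR shRNA cells. ADAR shRNA replicate 2 was within background, replicate 1 was not, and after normalization replicate 1 lay between the scrambled arrays. The log2 difference was -0.67 (95% interval -1.48 to 0.13, limma adjusted p = 0.143). It passed without ADAR shRNA replicate 1 (-1.19, limma adjusted p = 0.0212), under median scaling (-0.92, limma adjusted p = 0.0412) and without scaling (-1.07, limma adjusted p = 0.0263). Without ADAR shRNA replicate 2 it was -0.16 (limma adjusted p = 0.711) and without scrambled replicate 2 -0.40 (limma adjusted p = 0.483). Over 15 alternatives the adjusted p ranged from 0.0212 to 0.711. TRIM22, a ubiquitin ligase that represses retroviral and influenza replication, read 51.7 and 42.7 in raw signal in scrambled cells, against 49.8 and 54.2 in ADAR shRNA cells. These signals were within the range of the negative controls, with detection p from 0.243 to 0.923, so a TRIM22 transcript was not detectable in either group.

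**Figure D2:**
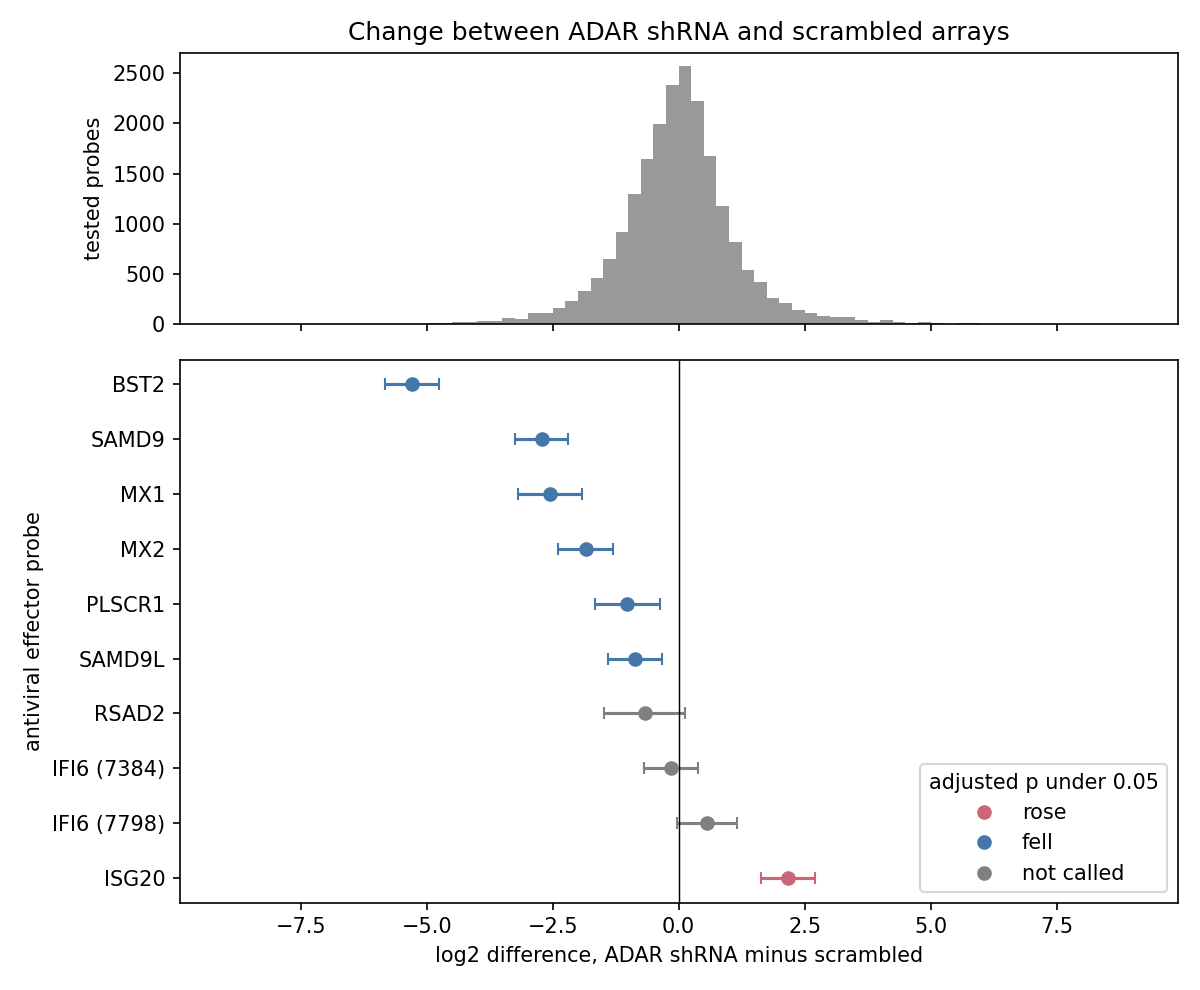
Log2 difference, ADAR shRNA minus scrambled (x axis), as a histogram over all 21263 tested probes (upper panel, y axis in probes) and for the 10 tested antiviral effector probes with 95% intervals from limma (lower panel). BST2, SAMD9, MX1, MX2, PLSCR1 and SAMD9L lie to the left of 0 with intervals that do not reach it, ISG20 lies to the right at 2.16, and the intervals of RSAD2 and both IFI6 probes include 0.

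The rest of the interferon pathway was counted by role over 94 tested probes of 67 genes. In these lists 37 probes fell and 21 rose, against 26.3% and 24.2% of all tested probes, and the median log2 difference was -0.41. Some of these probes passed the detection filter through the arrays of a single group, which set their direction. Without the filter, 32 of 125 pathway probes fell and 21 rose, against 10.5% and 9.63% of all probes. Of the interferon genes, IFNA1, IFNB1, IFNG, IFNK, IFNL1, IFNL2 and IFNL3 were detected on no array, and of 4 tested probes 2 rose and 1 fell. Both risen probes belong to IFNE, an epithelial interferon undetected on the scrambled arrays. These probes passed the detection filter through the ADAR shRNA arrays alone, so their direction was set by the filter. On probe ILMN_2097997 IFNE was at least 1.47-fold higher (limma adjusted p = 0.0390 with no detection filter), and it did not pass without ADAR shRNA replicate 2 (limma adjusted p = 0.0618). The fallen probe, of IFNA2, whose family members are near-identical in sequence, passed the filter through the scrambled arrays alone. It did not pass with no detection filter (limma adjusted p = 0.115).

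Receptors and signal transducers rose in 5 and fell in 2 of 13 tested probes, with a median log2 difference of 0.34. The receptor chains IFNAR2 (probe ILMN_1765146) and IFNLR1 (probe ILMN_2405324) rose by 1.24 (SE 0.19) and 1.06 (SE 0.20) on the log2 scale, and neither passed with no normalization between arrays (0.60 and 0.38). Other probes of IFNAR2 and IFNLR1 read 0.50 and 0.21 and did not pass. IRF9, which binds the response element, fell by 0.85 on the log2 scale (SE 0.22, limma adjusted p = 0.0126), and the kinase gene JAK2 was at least 1.33-fold lower. JAK2 passed the filter through the scrambled arrays alone and so had to be lower (limma adjusted p = 0.0267 with no detection filter). Neither IRF9 nor JAK2 passed without scrambled replicate 2 (-0.67 and -0.63), without ADAR shRNA replicate 1 (-0.72 and -0.74) or on the authors' processed values.

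Regulatory factors and feedback inhibitors fell in 6 and rose in 2 of 11 tested probes, with a median log2 difference of -0.86. The transcription factors IRF1 and IRF7 (probe ILMN_1798181) fell by 2.99 (SE 0.21) and fell by 1.51 (SE 0.24) on the log2 scale, while the cytokine signalling inhibitor SOCS3 rose by 3.22 (SE 0.19, probe ILMN_1781001), with 1.84 on another probe. Other interferon-induced genes fell in 28 and rose in 12 of 66 tested probes, with a median log2 difference of -0.50. ISG15, a ubiquitin-like modifier, fell by 3.72 (SE 0.27), and its ligase HERC5 fell by 3.76 (SE 0.22). OAS1, which makes the activator of RNase L, rose by 3.25 (SE 0.19, probe ILMN_2410826) and IFITM2, which blocks virus entry, rose by 1.60 (SE 0.21). Under median scaling the 94 pathway probes split into 13 risen and 49 fallen. Of all called probes 48.0% rose, compared with 28.2% after scaling to array medians and 19.2% without scaling. For the effectors scaling to array medians gave 1 risen and 7 fallen, where 15.1% of all tested probes rose and 38.5% fell. No scaling gave 1 risen and 8 fallen, where 10% rose and 42.3% fell.

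**Figure D3:**
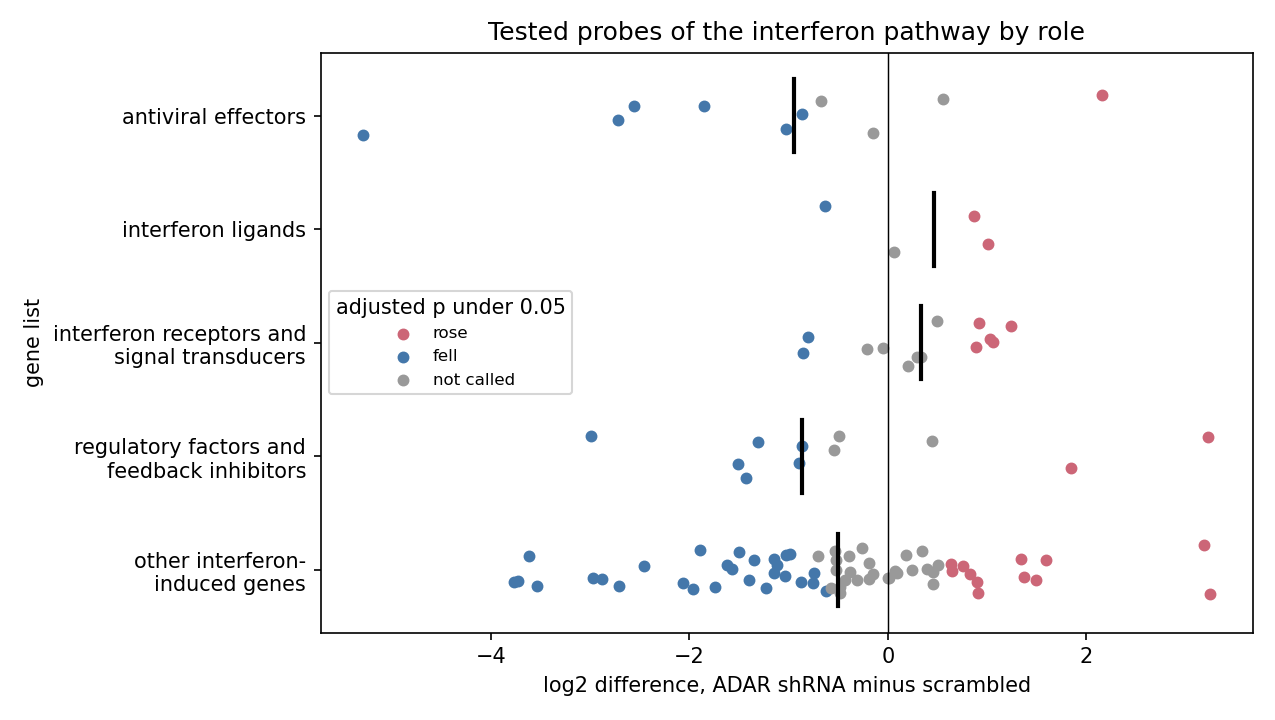
Log2 difference, ADAR shRNA minus scrambled (x axis), of each tested probe in the antiviral effector list and in 4 lists of the interferon pathway (y axis, points spread vertically for legibility), coloured by the limma call, with a black bar at each list's median. The effector median is -0.94, the medians of ligands and of receptors and transducers are 0.47 and 0.34, and each list holds both risen and fallen probes.

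**Figure D4:**
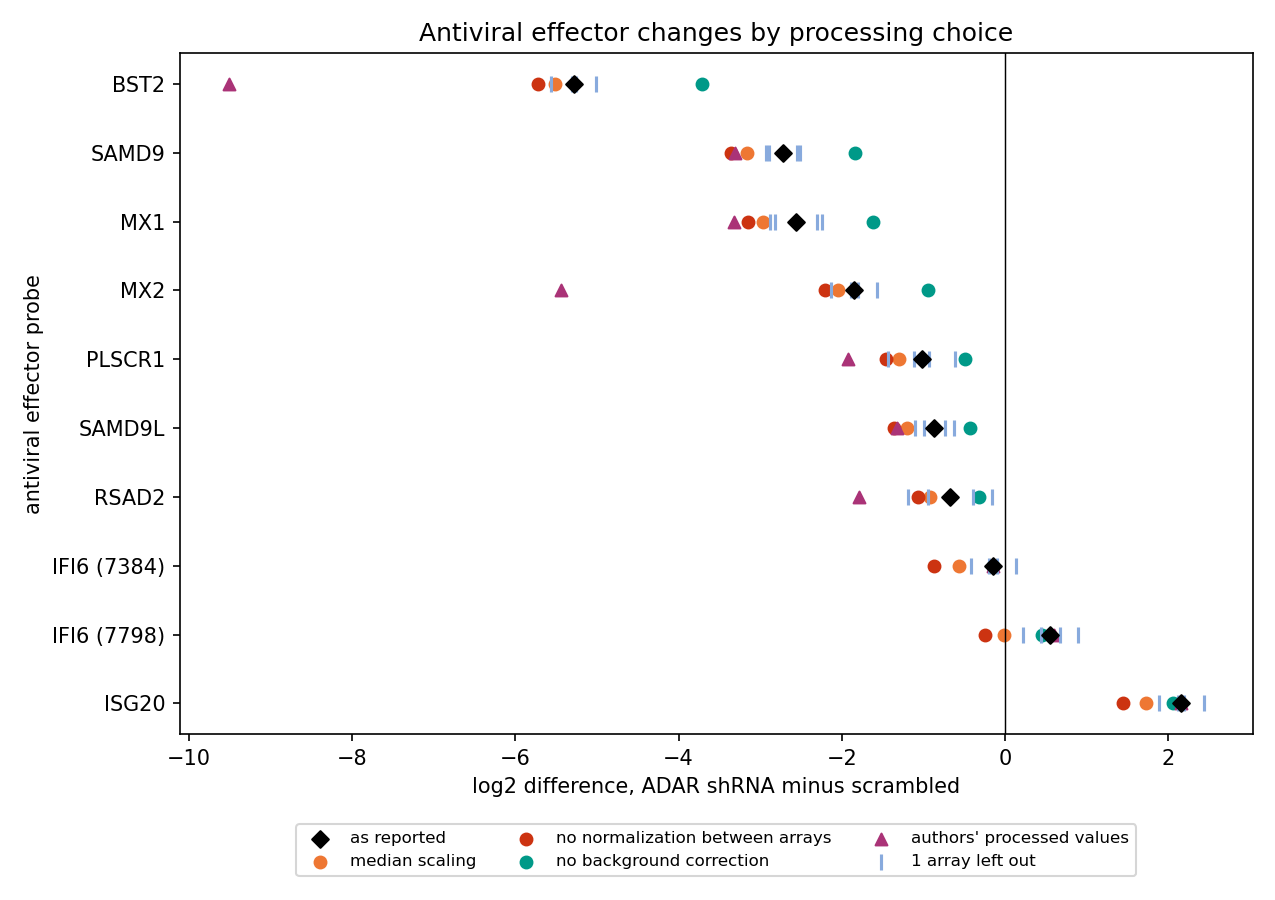
Log2 difference, ADAR shRNA minus scrambled (x axis), of the 10 tested effector probes (y axis) as reported and under other processing choices, with a blue tick for each fit that leaves out 1 array. BST2, SAMD9, MX1, MX2, PLSCR1, SAMD9L and RSAD2 stay below 0 and ISG20 stays above 0 in every fit drawn, and both IFI6 probes have values on either side of 0.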

How the data were processed

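Total RNA was labelled with biotin and read on Illumina bead arrays. Per the file headers, the authors deposited for each probe and array a mean bead intensity on a linear scale, not normalized, a count of beads, the standard error over beads, and a p-value for detection. The deposited values came from GenomeStudio, per the submitters' processing notes, with no version given. A deposited table of processed intensity values, whose normalization is not given in the sources used here, served as an alternative.

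Raw intensities were background corrected with normexp from the detection p-values (offset 16), normalized by quantiles and taken to log2 with limma 3.58.1 in R 4.3.3. The 21263 probes with detection p under 0.05 on at least 2 of 4 arrays were compared by lmFit and eBayes, 2-sided, with Benjamini-Hochberg adjustment over all of them and calls at an adjusted p under 0.05. Every difference is ADAR shRNA minus scrambled. The test had 2 residual and 5.83 prior degrees of freedom. An exact permutation test of 2 arrays against 2 cannot go below 0.333. Nothing in the labels says that replicates came from separate cultures, so the p-values may measure technical spread. Only 2 arrays per group limit the precision.

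Probe names came from the platform annotation (30113 probes with 1 symbol), and gene positions and promoters from RefSeq, GRCh38.p14. All effector probes were named. From each pathway list the rule took up to 2 rises and 2 falls, the largest among called probes whose groups did not overlap. Each gene entered by its largest such probe, and the readings of a gene's other probes were not always given. Members, lists and rules were chosen with earlier results of these data known. The markers were named after their values were seen. The fit was tested on simulated data whose variances were drawn from limma's own estimated prior, which does not test that variance model. An earlier simulation, with variances drawn from the per-probe spreads over these few arrays, had recovered none of the planted changes. Alternatives changed scaling, background correction, offset, detection filter, variance model, probe summary, bead minimum, values used, pairing and each array left out.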

Additional observations from a re-analysis of the deposited data

How the results depend on the processing

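Under 16 alternatives, MX1, MX2, BST2, SAMD9 and ISG20 kept their direction and their call wherever they were tested, and PLSCR1, SAMD9L and RSAD2 kept their direction. The number of effector probes that rose was 2 with the replicate number as a block, where the IFI6 probe ILMN_2347798 passed (limma adjusted p = 0.0454), and 1 to 2 when 1 array was left out. The number that fell was 0 with a detection p under 0.01 required on every array, since 3 effector probes remained, and 4 to 6 when 1 array was left out. The 2 replicate numbers are not said to pair the arrays, and deviations of same-numbered arrays correlated at 0.14 over tested probes. The block gave 5562 risen and 6011 fallen probes in all, against 5155 and 5595.

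Risen pathway probes numbered 13 under median scaling and 10 without scaling of the arrays, against 21. Over all probes 3216 and 2130 rose under these settings. With 1 probe per gene 3116 rose, of 12197 genes tested. With no normalization 8986 fell, and 3355 with the stricter detection filter, of 13130 tested. The signs that turned were those of the IFI6 probe ILMN_2347798 (-0.013 and -0.25 under median scaling and no normalization), the IFI6 probe ILMN_1687384 (-0.42 to 0.13 with 1 array left out) and the ADAR probe ILMN_2320964 (-0.46 to 0.085 likewise). The cause was not tested.

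Sizes depended on background: BST2 read -3.71 with no background correction and -9.52 on the authors' values, where the ADAR shRNA readings sit at or near the floor of 1, and MX2 read -0.94 and -5.44. PLSCR1 read -0.49 and -1.92, SAMD9L -0.43 and -1.32 and RSAD2 -0.32 and -1.78 under the same settings, and values for MX1 and SAMD9 stand with their results. The bead minimum of 3 removed 0 probes. Signals near background limit RSAD2, PLSCR1, SAMD9L and MX2. In ADAR shRNA cells BST2 read within background, MX1 read near it on replicate 2 and SAMD9 on replicate 1 (detection p 0.0117). This limits the sizes of the falls of BST2, MX1 and SAMD9.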
